A study of Mus musculus with 42 samples.

Results

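Liver RNA of mice with and without the long noncoding RNA gene *Tug1* was compared gene by gene. The comparison holds 6 samples of the 42 in the series, 3 from wild-type and 3 from *Tug1*-/- livers, and covers all 26653 genes that the deposited table lists for each tissue. The mice are of the strain Tug1_tm1.1Vlcg on a C57BL/6J background (N3-C57BL/6J, no Neo), and those of the liver samples are male; their age is not given in the sources used here. Wild-type mice carry normal *Tug1* on both alleles and no *lacZ*, while both alleles of *Tug1*-/- mice keep the *Tug1* promoter and the exon next to it and carry *lacZ* in place of the remainder of the gene. Every cell of the body carries the deletion, so the liver values belong to an animal without *Tug1* in any tissue, and not to liver cells alone.

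*Tug1* is a spliced and polyadenylated long noncoding RNA made from a promoter that faces that of *Morc2a* on the other strand. Most liver RNA comes from hepatocytes, which make the plasma proteins, store and release glucose, oxidize fatty acids, make cholesterol and bile acids and clear foreign compounds through cytochromes P450 and conjugating enzymes. Much of that program answers to hormones such as glucocorticoids, growth hormone and insulin, to feeding and to the time of day. The time of day and the feeding state of these mice are not given in the sources used here.

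The table gives 1 value for each gene and genotype, in fragments scaled by transcript length and by library size (FPKM), in which the authors had combined the 3 replicates. The table gives no value per mouse, so no value below carries a standard deviation, no p value is given, and no difference could be set against the spread between mice. The words higher and lower below describe these 2 combined values and nothing more, and where values are given in pairs, wild type comes first and *Tug1*-/- second. The depth of the libraries is unknown for the same reason. Changes were computed as log2((*Tug1*-/- + 0.1)/(wild type + 0.1)), a scale on which low genes appear to differ less than they do. A gene was counted where the mean of its 2 values was at least 1 FPKM, and was said to be past the limit where the values differed by more than 1.5 times on this scale (0.58 in log2).

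The labels were checked first on *Tug1* itself (ENSMUSG00000056579.11), which GENCODE vM21 places at chr11:3639785-3649673 of GRCm38, on the minus strand. Its level was 12.7 FPKM in wild-type liver and 0.00753 FPKM in liver of *Tug1*-/- mice. The *lacZ* cassette was listed at 0 in wild-type and had 0.355 FPKM in *Tug1*-/- liver. Both genotypes expressed the hepatocyte genes *Apoc1* (22469 FPKM in wild type and 20595 in *Tug1*-/-) and *Ttr*, the carrier of thyroid hormone (8849 and 8241 FPKM). *G6pc*, the glucose-6-phosphatase that lets hepatocytes release glucose, had 425 and 261 FPKM, past the limit and still abundant. *Alb*, which hepatocytes express at a very high level, was listed at 0 in wild-type and *Tug1*-/- liver alike, flagged as having too little data to estimate, and was treated as a failed estimate with 30 other genes of incomplete status. Those 31 genes, among them 15 *Mup* genes, *Serpina1a* to *Serpina1e* and mitochondrial *mt-Co1*, *mt-Co3*, *mt-Atp6* and *mt-Atp8*, were left out of every count.

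The promoters of *Tug1* and *Morc2a* are shown because the allele keeps them while the neighboring levels differ. The windows are those of RefSeq on GRCm38.p6, from 250 bases before to 50 bases after the annotated start, read along the strand of each gene. The *Tug1* window is chr11:3648765-3649064 on the minus strand and the *Morc2a* window is chr11:3649187-3649486 on the plus strand, 122 bases apart. The RefSeq start of *Tug1* thus lies inside the gene span that GENCODE gives, and the annotations do not agree on that start.
Tug1: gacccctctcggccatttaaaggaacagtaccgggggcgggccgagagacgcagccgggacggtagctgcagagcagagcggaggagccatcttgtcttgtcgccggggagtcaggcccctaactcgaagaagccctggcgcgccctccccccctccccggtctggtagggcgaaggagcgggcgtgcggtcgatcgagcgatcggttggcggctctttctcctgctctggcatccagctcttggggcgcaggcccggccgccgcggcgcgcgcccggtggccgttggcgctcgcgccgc
Morc2a: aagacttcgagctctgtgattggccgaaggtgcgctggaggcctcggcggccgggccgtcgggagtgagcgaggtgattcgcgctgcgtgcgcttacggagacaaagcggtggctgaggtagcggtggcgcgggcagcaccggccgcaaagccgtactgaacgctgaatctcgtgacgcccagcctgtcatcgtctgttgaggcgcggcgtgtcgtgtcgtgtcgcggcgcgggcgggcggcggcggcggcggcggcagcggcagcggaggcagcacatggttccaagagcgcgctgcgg

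*Morc2a*, which encodes a chromatin ATPase, stood at 5.89 FPKM in wild-type and at 0.621 in *Tug1*-/- liver, a log2 difference of -3.05. In GENCODE its annotated start lies 482 bp from that of *Tug1* and inside the *Tug1* gene. By the RefSeq starts it lies upstream of *Tug1* instead, where the paper also places it. The library kit does not keep the strand, so reads from an overlap, where there is one, cannot be assigned to either gene. Among the 48 other genes that start within 1 Mb of *Tug1*, 26 were counted. Of these, 3 were past the limit upward (11.5%, beside 2.50% of all counted genes), all downstream of *Tug1*, and 3 downward (beside 2.22%). *Rnf185*, a ubiquitin ligase gene, stood at 18.7 FPKM in wild type and at 37.9 in *Tug1*-/-, and *Selm*, a selenoprotein gene, had 4.17 and 7.76 FPKM. *8430429K09Rik* had 1.07 and 1.76 FPKM; it starts next to *Rnf185* on the other strand, and the annotated genes do not overlap. The other downward genes, *Gatsl3* (2.09 and 1.35 FPKM) and *Gm11032* (500 and 317 FPKM), are named here after their values were seen. The remaining 20 genes of the window lay between -0.28 and 0.32 in log2, *Smtn* (2.47 and 2.93 FPKM) among them.

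**Figure D1:**
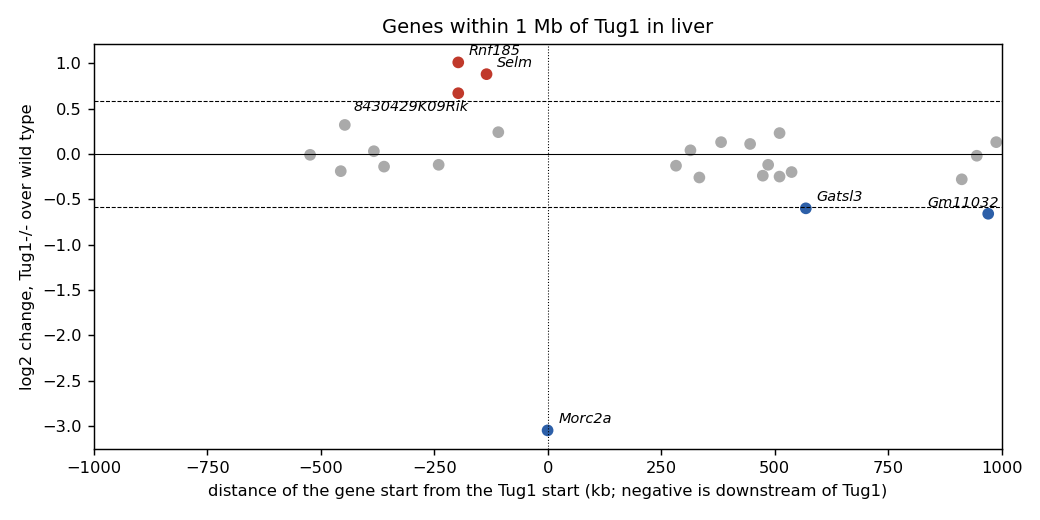
Log2 change in liver of the 26 counted genes within 1 Mb of *Tug1*, plotted by the distance of their start from the *Tug1* start in kb, with red points more than 1.5 times higher and blue points more than 1.5 times lower in *Tug1*-/- liver. *Rnf185*, *Selm* and *8430429K09Rik* stand above the upper dashed line on the downstream side, *Morc2a* lies at -3.05 beside *Tug1*, and most of the others lie near 0.

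Over the whole table, 11697 genes were counted. *Tug1*-/- liver was more than 1.5 times higher in 292 of them (2.50%) and more than 1.5 times lower in 260 (2.22%). The median log2 change was -0.02 and the quartiles were -0.14 and 0.10. The limit of more than 2 times was passed by 89 genes upward and 64 downward. The share past the limit depended on the level: it was 5.90% upward and 5.18% downward among the 1254 genes with a mean of 1 to 2 FPKM, and 1.12% and 1.54% among the 714 genes with a mean of 200 FPKM or more. The limit was thus passed more often by low genes than by abundant ones. The FPKM values summed to 1038677 in wild type and 997807 in *Tug1*-/- without the genes of incomplete status. Scaling both to the same sum would raise log2 changes by up to 0.06, and by less at low values because of the pseudocount.

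The 12 genes with the highest change among those with a mean of at least 5 FPKM are described first. *Cyp2a4*, a steroid hydroxylase gene that is typical of female mouse liver, led with 1.26 and 75.1 FPKM. *Cyp2d12* (1.65 and 8.46 FPKM), *Cyp4a31* (3.26 and 10.7 FPKM) and *Cyp17a1*, the steroid hydroxylase and lyase of androgen synthesis (5.87 and 27.9 FPKM), were the other cytochromes P450. *Alas1*, the first and rate-limiting enzyme of heme synthesis in liver, was the most abundant of the 12, with 139 FPKM in wild type and 522 in *Tug1*-/-. Its change ranked second by size among the 714 genes of its level. *Lpin1*, a phosphatidate phosphatase of triglyceride synthesis, had 36.2 and 167 FPKM and the largest change of the 1528 genes between 50 and 200 FPKM. *Ddit4*, an inhibitor of mTOR signaling (3.63 and 14.6 FPKM), *Gadd45g*, a growth arrest gene (10.4 and 33.4 FPKM), and *Pfkfb3*, which makes an activator of glycolysis (7.92 and 25.1 FPKM), were also among them. The last 3 were *Marco*, a scavenger receptor gene of macrophages (2.63 and 18.4 FPKM), *Tff3*, a secreted trefoil peptide gene (6.91 and 43.2 FPKM), and *Hspa1b*, an inducible heat shock gene (3.73 and 11 FPKM).

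Besides *Tug1*, the genes with the lowest change were led by *Nr4a1*, an orphan nuclear receptor and immediate early gene, with 13.6 FPKM in wild type and 2.00 in *Tug1*-/-. *G0s2*, which inhibits the main triglyceride lipase, had 161 and 43.6 FPKM and the second largest change of its level. *Fitm1*, a lipid droplet gene (64.9 and 22.1 FPKM), *Vnn1*, a pantetheinase gene and target of PPARα (26.3 and 7.17 FPKM), and *Acot3*, an acyl-CoA thioesterase gene (23.1 and 7.80 FPKM), were lower as well. *Ppp1r3c*, which targets a phosphatase to glycogen, stood at 66.7 FPKM in wild type and at 26.2 in *Tug1*-/-. The others were *Inhbe*, an activin subunit (46.7 and 16.5 FPKM), *Efna1*, an ephrin (68.2 and 26.2 FPKM), *Klf10*, a zinc finger factor (34.5 and 12.8 FPKM), *Pik3c2g*, a lipid kinase (7.94 and 2.19 FPKM), and *Clstn3* (19.3 and 4.87 FPKM).

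Among the most abundant genes, with a mean of at least 200 FPKM, 8 were past the limit upward and 11 downward. *Apoe*, the apolipoprotein that carries remnant lipoproteins to their receptors, had the highest level, with 39297 FPKM in wild type and 23898 in *Tug1*-/-. *Car3*, a carbonic anhydrase gene named here after its values were seen, had 4877 and 2888 FPKM. *Tat*, the tyrosine aminotransferase, had the highest level of those upward, with 1289 and 2301 FPKM. *Gm21836* was listed at 1383 FPKM in wild type and at 0 in *Tug1*-/-, and 3 further genes past the limit, *Gm17590*, *Gm17530* and *Gm11705*, were also listed at 0 in 1 genotype. Such zeros can be failed estimates, and no fold is given for them.

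**Figure D2:**
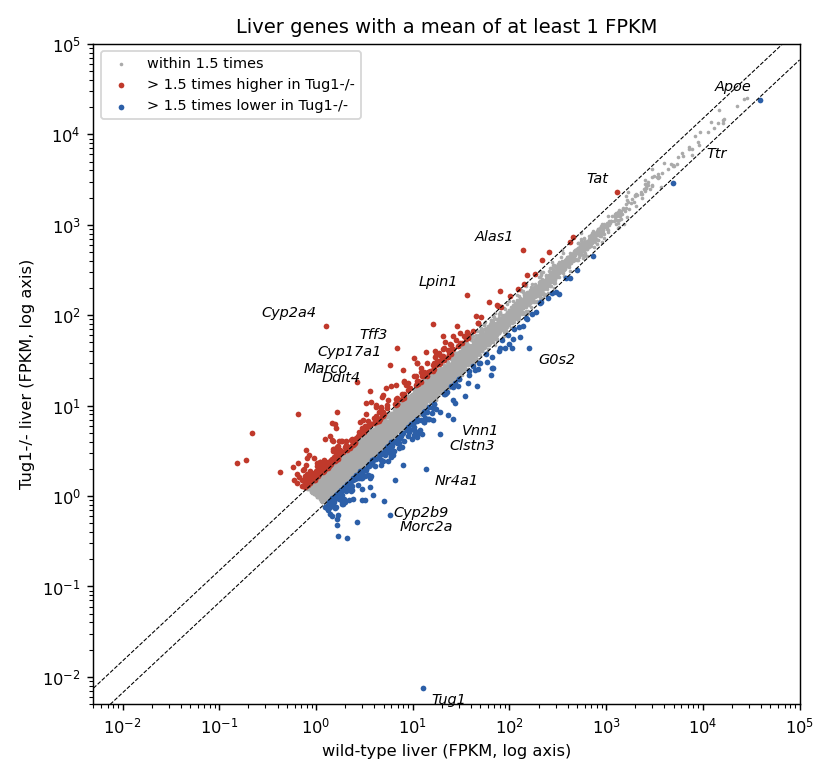
Level of each gene in wild-type liver (x axis, FPKM) and *Tug1*-/- liver (y axis, FPKM), both on log axes, for genes with a mean of at least 1 FPKM and a value above 0 in both genotypes. Dashed lines mark 1.5 times; *Tug1* lies far below them at 12.7 and 0.00753 FPKM, *Cyp2a4* far above at 1.26 and 75.1 FPKM, and the cloud widens toward low levels.

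*Cyp2a4* has a close copy in *Cyp2a5*. The longest coding transcripts of *Cyp2a4* and *Cyp2a5* in GENCODE vM21 were identical at 98.3% of the 1738 bases that an alignment paired, and *Cyp2a22* matched *Cyp2a4* at 74.4% of 1702. *Cyp2a5* was abundant in both genotypes, with 697 FPKM in wild type and 586 in *Tug1*-/-. How the counting shared reads between such copies is not given in the sources used here, so the level of *Cyp2a4* is uncertain. Summed over the 4 counted *Cyp2a* genes, the level was 1297 FPKM in wild type and 1201 in *Tug1*-/-. The promoter windows are printed because they show how alike the copies are: capitals mark the bases that differ from the other gene or have no partner in it, in chr7:26306942-26307241 and chr7:26835089-26835388 of GRCm38.p6, both on the plus strand.
Cyp2a4: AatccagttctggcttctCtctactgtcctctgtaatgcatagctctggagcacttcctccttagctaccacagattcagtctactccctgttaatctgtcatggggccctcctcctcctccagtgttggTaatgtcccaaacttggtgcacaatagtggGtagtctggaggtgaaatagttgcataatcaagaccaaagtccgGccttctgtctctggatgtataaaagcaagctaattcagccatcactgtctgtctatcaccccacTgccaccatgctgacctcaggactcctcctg
Cyp2a5: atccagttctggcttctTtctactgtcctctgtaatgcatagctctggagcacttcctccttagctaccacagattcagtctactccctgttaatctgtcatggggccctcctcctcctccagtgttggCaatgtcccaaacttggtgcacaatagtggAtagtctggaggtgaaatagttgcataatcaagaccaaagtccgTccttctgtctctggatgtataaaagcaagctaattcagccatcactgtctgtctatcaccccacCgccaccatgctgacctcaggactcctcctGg

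The group with the largest median change was that of genes that glucocorticoids induce. Of its 17 genes 16 were counted, of which 10 were more than 1.5 times higher and none more than 1.5 times lower. The share of 62.5% stands beside 2.50% over all genes. The median log2 change was 0.90, and 15 of the 16 lay above 0. *Tsc22d3*, which encodes the glucocorticoid-induced leucine zipper, stood at 80.4 FPKM in wild type and at 183 in *Tug1*-/-. *Fkbp5*, a chaperone partner that dampens the glucocorticoid receptor, had 12.3 and 26.2 FPKM, and *Zbtb16*, a transcription factor gene, 1.61 and 5.71 FPKM. The metallothioneins *Mt1* (60.8 and 141 FPKM) and *Mt2* (13.7 and 38.8 FPKM), *Lcn2* (3.18 and 6.03 FPKM) and *Cdkn1a* (0.847 and 1.66 FPKM) were higher too, with *Tat*, *Ddit4* and *Lpin1* given above. The members within the limit were *Errfi1* (552 and 804 FPKM), *Per1* (10.7 and 15.2), *Sgk1* (15.8 and 21.6), *Klf9* (61.6 and 64.3), *Pdk4* (2.49 and 2.52) and *Dusp1*, the one member below 0 (42.7 and 28.6). Several of these genes also answer to fasting, cyclic AMP, metals or cytokines, so the name of the list does not say what acted on these livers. The list and its members were chosen with earlier results of these data known, so its share is not an independent count.

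The heat shock genes, chaperones and their helpers, were the group next in order of the median. All 11 counted members had a log2 change above 0, between 0.14 and 1.54, with a median of 0.59. The limit was passed upward by 7 (63.6% beside 2.50% over all genes) and downward by none. *Hsph1*, a nucleotide exchange factor for heat shock proteins, stood at 17.0 FPKM in wild type and at 40.0 in *Tug1*-/-. *Hspa8*, the constitutive chaperone, had 422 and 645 FPKM, *Dnajb1* 17.7 and 28.7, *Serpinh1*, the collagen chaperone, 6.58 and 10.3, *Bag3* 16.2 and 24.5 and *Chordc1* 22.9 and 34.6. The mitochondrial chaperonins *Hspd1* (401 and 442 FPKM) and *Hspe1* (279 and 315 FPKM) differed least. The median lay close to the limit, so that this count moves with small shifts of scale. This list too was chosen with earlier results of these data known.

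**Figure D3:**
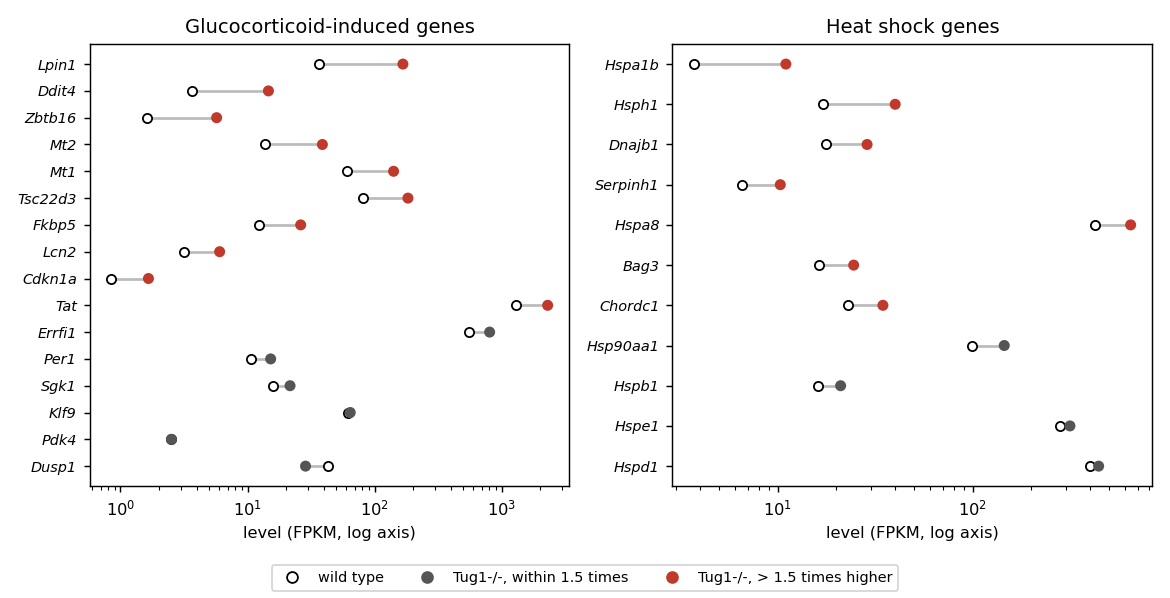
Level in FPKM (log axis) of the counted glucocorticoid-induced genes (left) and heat shock genes (right), with open circles for wild-type and filled circles for *Tug1*-/- liver, red where more than 1.5 times higher. In 15 of 16 genes on the left and all 11 on the right the filled circle lies to the right of the open one, *Dusp1* being the exception.

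Promoters of the metallothionein and heat shock genes are shown with the short motifs known for their inducible control. Capitals mark the metal response core TGCACNC or TGCGCNC in *Mt1* and *Mt2*, and the paired heat shock units GAANNTTC in *Hspa1b* and *Hsph1*, searched on both strands. The windows are chr8:94178839-94179138 and chr8:94172368-94172667, both on the plus strand, and chr17:34959189-34959488 and chr5:149636266-149636565, both on the minus strand, of GRCm38.p6.
Mt1: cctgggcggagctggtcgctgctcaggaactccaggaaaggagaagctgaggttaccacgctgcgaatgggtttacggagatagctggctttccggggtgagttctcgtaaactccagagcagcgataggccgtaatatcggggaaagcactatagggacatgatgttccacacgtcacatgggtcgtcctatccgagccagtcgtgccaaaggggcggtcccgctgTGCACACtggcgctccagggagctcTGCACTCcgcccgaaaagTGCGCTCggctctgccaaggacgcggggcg
Mt2: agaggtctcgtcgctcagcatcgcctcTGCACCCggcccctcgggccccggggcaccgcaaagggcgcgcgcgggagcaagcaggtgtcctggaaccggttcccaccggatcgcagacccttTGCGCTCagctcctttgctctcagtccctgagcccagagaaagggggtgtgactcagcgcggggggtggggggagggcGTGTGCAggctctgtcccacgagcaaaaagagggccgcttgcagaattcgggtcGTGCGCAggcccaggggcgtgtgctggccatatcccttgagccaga
Hspa1b: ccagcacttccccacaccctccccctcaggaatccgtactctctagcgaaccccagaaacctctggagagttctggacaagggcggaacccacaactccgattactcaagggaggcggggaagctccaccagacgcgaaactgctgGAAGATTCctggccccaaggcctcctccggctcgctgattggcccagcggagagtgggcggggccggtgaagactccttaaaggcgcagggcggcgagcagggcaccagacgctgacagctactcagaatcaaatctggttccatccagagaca
Hsph1: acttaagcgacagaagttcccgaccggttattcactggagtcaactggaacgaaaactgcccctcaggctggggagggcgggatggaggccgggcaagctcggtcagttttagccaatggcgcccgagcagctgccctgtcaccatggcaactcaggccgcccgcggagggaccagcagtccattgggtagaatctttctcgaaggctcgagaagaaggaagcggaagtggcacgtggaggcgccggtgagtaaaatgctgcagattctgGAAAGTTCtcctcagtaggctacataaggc

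The *Mt1* window held 3 and the *Mt2* window 4 matches to the metal response core. A window with at least 3, a cut equal to the *Mt1* count, was found for 2.27% of the 27025 genes with promoter windows. Any match to this core was found for 6 of 15 counted glucocorticoid-induced genes with a window and for 28.2% of all genes. Of the 9 with a window among those past the limit, 3 held it. The heat shock motif was found for 7 of the 9 counted heat shock genes with a window in the table and for 9.04% of all genes. Of the 6 with a window among the heat shock genes past the limit, 4 held it. The windows of *Dnajb1*, not printed, held none, and the printed *Hsph1* match lies after the annotated start. The hexamer AGAACA of the glucocorticoid receptor was found for 3 of 15 counted glucocorticoid-induced genes (*Lpin1*, *Sgk1* and *Tsc22d3*) and for 21.3% of all genes, on either strand. A match describes the letters in these windows, and factor binding was not measured here.

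The phase I enzymes, which oxidize or hydrolyze drugs, steroids and other lipophilic compounds, were mostly a little lower in *Tug1*-/- liver. Of 68 counted genes 53 had a log2 change below 0, with a median of -0.16 against -0.02 over all genes. The limit was passed downward by 7 (10.3% beside 2.22% over all genes) and upward by 3 (4.41% beside 2.50%). Downward these were *Cyp2b9* (5.04 and 0.888 FPKM), *Cyp3a16* (1.94 and 0.933), *Cyp2c37* (323 and 173), *Cyp2c54* (303 and 182), *Cyp3a44* (1.67 and 0.967), *Cyp3a59* (48.4 and 29.9) and *Cyp2c50* (723 and 454). Upward, beside *Cyp2a4* and *Cyp2d12*, was *Cyp2c39*, with 24.8 FPKM in wild type and 46.3 in *Tug1*-/-. The most abundant P450s lay within the limit: *Cyp2e1*, which oxidizes ethanol, had 7703 and 5937 FPKM, *Cyp3a11* 3716 and 2594, and *Cyp2c29* 1512 and 1029. Many of these genes have close copies, and how reads were divided among them is not given in the sources used here.

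By family, the 6 *Cyp3a* genes had a median of -0.61, and their summed level was 4494 FPKM in wild type and 3175 in *Tug1*-/-. The 12 *Cyp2c* genes summed to 4257 and 3207 FPKM, with 10 of 12 below 0, and the 8 *Cyp2d* genes to 2952 and 2575 FPKM, with 7 of 8 below 0. Of 11 carboxylesterases 10 lay below 0, with a median of -0.29 and none past the limit. The 4 flavin monooxygenases differed in sign from these families, all 4 lying above 0 with a median of 0.25, and *Por*, the reductase that feeds electrons to the P450s, stood at 201 FPKM in wild type and at 266 in *Tug1*-/-.

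**Figure D4:**
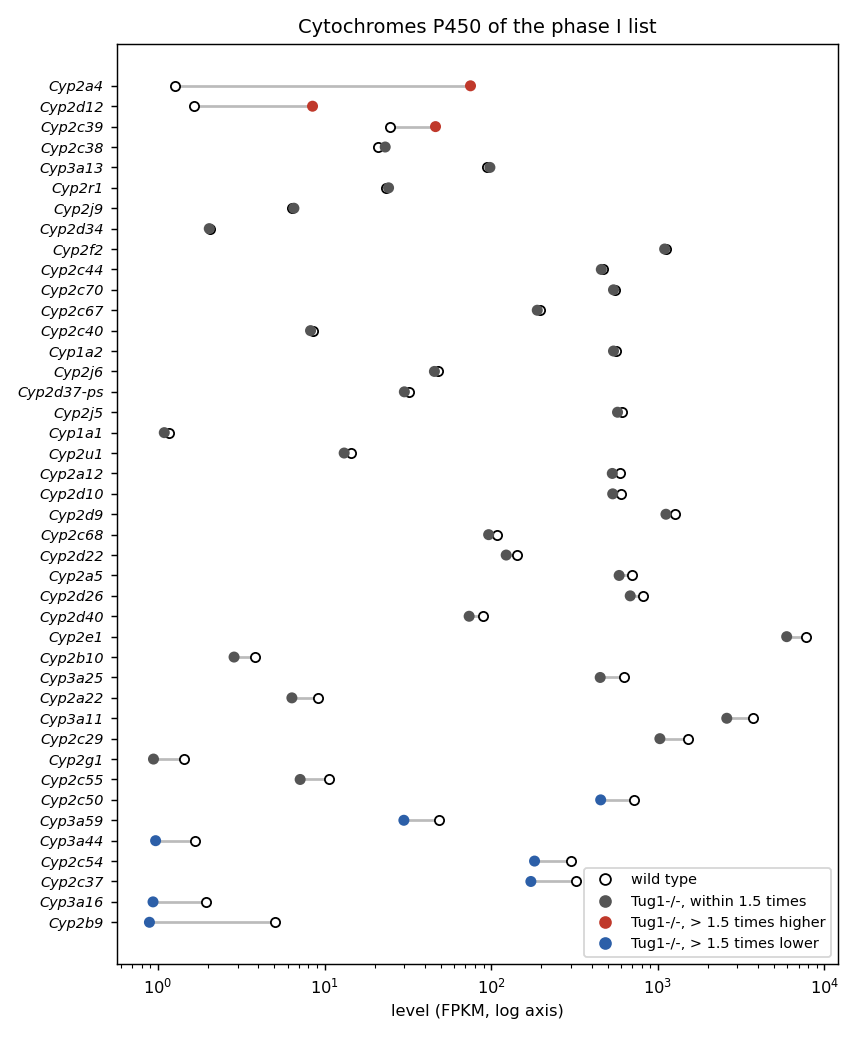
Level in FPKM (log axis) of the 42 counted cytochromes P450 of the phase I list in wild-type (open) and *Tug1*-/- (filled) liver, ordered by log2 change, red and blue where more than 1.5 times higher or lower. The filled circle lies to the left in 35 of the 42, mostly by a small step. For *Cyp2a4*, *Cyp2d12* and *Cyp2c39* at the top it lies to the right, by the largest step for *Cyp2a4*.

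The phase II and antioxidant enzymes, which conjugate such compounds and keep glutathione reduced, leaned the same way with smaller steps. Of 52 counted genes 37 lay below 0, with a median of -0.12, while 4 passed the limit upward (7.69% beside 2.50% over all genes). *Sult5a1*, a sulfotransferase gene (16.3 and 6.99 FPKM), passed it downward (1.92% beside 2.22%). Upward were *Gstp2* (6.75 and 16.8 FPKM), *Ugt1a9* (37.3 and 62.6), *Nnmt*, the nicotinamide methyltransferase (142 and 224), and *Hmox1*, which opens the heme ring (16.4 and 28.3). *Nqo1* (8.77 and 7.58 FPKM), *Gclc* (215 and 198) and *Txnrd1* (83.6 and 84.1) lay within the limit. Among the sensors and hepatocyte factors, *Nr1i3*, the receptor CAR, had 91.8 and 64.8 FPKM and *Nr1i2*, the receptor PXR, 45.3 and 45.4. *Onecut1* (5.28 and 15.5 FPKM) and *Foxa3* (26 and 59.0 FPKM) were past the limit upward, and *Bcl6*, a repressor with sex-biased targets in liver, downward (27.1 and 10.6 FPKM). The shares of the 17 counted sensors and factors were 11.8% upward and 5.88% downward, beside 2.50% and 2.22%. *Hnf4a*, the central hepatocyte factor, had 277 and 332 FPKM.

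Genes that differ between male and female mouse liver passed the limit in both directions. Of the 10 counted genes that are higher in females, 3 were past the limit upward (30% beside 2.50% over all genes) and 4 downward (40.0% beside 2.22%): *Cyp2a4*, *Cyp17a1* and *Abcd2* (8.18 and 18.1 FPKM) against *Cyp2b9*, *Acot3*, *Cyp3a16* and *Cyp3a44*. The other 11 members had means under 1 FPKM, and the downward count was 1 with a mean of at least 5 FPKM and 8 with no filter on the mean. The 13 counted male-biased genes had a median of -0.14, and 11 of them lay below 0. *Mup21* was past the limit upward (258 and 500 FPKM), and *Mup20* had 14852 and 18449 FPKM, but most *Mup* genes were among the failed estimates and their near-identical copies leave these levels uncertain. In the growth hormone system that drives this bias, *Cish* (3.71 and 6.19 FPKM) and *Socs2* (3.07 and 5.47 FPKM), both targets of STAT5, were upward, as was *Igfbp1* (28.8 and 75.8 FPKM), while *Igfbp5* was downward (4.06 and 2.15 FPKM). The shares of the 18 counted genes of that system were 16.7% upward and 5.56% downward, beside 2.50% and 2.22%. *Igf1* itself had 724 and 714 FPKM and *Ghr* 661 and 569.

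The acute phase proteins, which the liver secretes in response to inflammation, held 31 counted genes with a median log2 change of 0.13. Of these 5 were past the limit upward (16.1% beside 2.50% over all genes) and 1 downward (3.23% beside 2.22%). Upward were *Mt1*, *Mt2* and *Lcn2*, which are also members of the glucocorticoid list, with *Il1rn*, the interleukin-1 receptor antagonist (2.77 and 5.13 FPKM), and *Saa2*, a serum amyloid (20.4 and 31.7 FPKM). *Orm3*, an orosomucoid, was downward (5.06 and 3.08 FPKM). The abundant acute phase proteins lay near 0, with 2318 and 2305 FPKM for *Hp* (haptoglobin), 4646 and 4760 for *Fgb* (fibrinogen), and 488 and 512 for *Crp*. *Hamp*, the iron hormone hepcidin, stood at 2958 FPKM in wild type and at 4126 in *Tug1*-/-. Among the 9 counted signaling genes of the response, *Il6ra* (18.0 and 31.0 FPKM) and *Cebpb* (35.8 and 54.8 FPKM) were upward (22.2% beside 2.50%). *Il1b* (6.00 and 2.73 FPKM) was downward (11.1% beside 2.22%), while *Socs3* had 4.46 and 3.28 FPKM. None of the 22 other plasma proteins counted was past the limit, *Trf* (9381 and 10656 FPKM) and *Ahsg* (8262 and 9519 FPKM) being the most abundant.

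Cholesterol synthesis leaned upward as a group. Of 25 counted genes 23 lay above 0, with a median of 0.34, and 3 were past the limit upward (12% beside 2.50% over all genes) and none downward. Among them *Sqle*, the squalene epoxidase, stood at 20.9 FPKM in wild type and at 43.0 in *Tug1*-/-, and *Idi1*, the isoprenoid isomerase, had 124 and 193. *Insig1*, a sterol-sensing regulator of the pathway, had 267 and 274 FPKM. In bile acid synthesis and transport 1 of 21 counted genes was upward (4.76% beside 2.50%) and 3 downward (14.3% beside 2.22% over all genes). *Cyp7a1*, the rate-limiting hydroxylase, was upward with 30.9 and 63.3 FPKM. *Nr0b2*, the repressor SHP that bile acids induce, was downward (47.6 and 25.6 FPKM), with *Cyp8b1*, the hydroxylase that sets the share of cholic acid (147 and 93.1), and the exporter *Abcc3* (111 and 69.9).

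Fatty acid oxidation leaned downward, with 24 of 33 counted genes below 0 and a median of -0.18, but 3 passed the limit in each direction (9.09% each way, beside 2.50% upward and 2.22% downward over all genes). *Fgf21*, a fasting hormone (1.48 and 6.47 FPKM), *Cyp4a31* and *Cyp4a32* (17.6 and 28.2 FPKM) were upward, and *Vnn1*, *Acot3* and *Acot4* (16.5 and 10.5 FPKM) downward. All 6 are known targets of PPARα or members of its target families, while *Ppara* itself had 148 and 112 FPKM. The core enzymes *Cpt1a* (170 and 195 FPKM) and *Acadm* (379 and 332) were within the limit. The 21 counted genes of fatty acid and triglyceride synthesis had a median of 0.00, with 1 upward (4.76% beside 2.50%) and 2 downward (9.52% beside 2.22%). The change of greatest size among them was the upward one of *Lpin1*, given above, while *Srebf1* (273 and 178 FPKM) and *Mogat1* (2.22 and 0.899 FPKM) were downward. *Fasn* (168 and 184 FPKM) and *Scd1* (3560 and 3422 FPKM) lay near 0.

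In glucose metabolism 1 of 21 counted genes was past the limit upward (4.76% beside 2.50% over all genes). Downward were 2 (9.52% beside 2.22%), *G6pc* and *Ppp1r3c*. *Pck1*, the carboxykinase of glucose synthesis, had 1672 and 2328 FPKM. The amino acid enzymes held 28 counted genes with a median of 0.11. Of these *Tat*, *Got1* (153 and 276 FPKM) and *Asns* (9.35 and 15.5 FPKM) were upward (10.7% beside 2.50%) and none downward. Genes of the region around the central vein had a median of -0.23, with 11 of 14 below 0. *Axin2*, a Wnt target (3.29 and 2.01 FPKM), was past the limit downward (7.14% beside 2.22%). Genes of the region around the portal vein had a median of 0.21, with 11 of 15 above 0 and none past the limit, *Ass1* (2522 and 3170 FPKM) among them. Both zonation lists share members with the enzyme lists above, so they are not further evidence of their own.

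Of the 21 counted circadian genes 14 lay below 0, with a median of -0.20. The limit was passed upward by 2 (9.52% beside 2.50% over all genes) and downward by 4 (19.0% beside 2.22%). *Ccrn4l*, which encodes nocturnin (21.5 and 50.5 FPKM), and *Gm129*, the repressor chrono (11.3 and 18.8 FPKM), were upward, and *Bhlhe41* (4.66 and 2.19), *Bhlhe40* (125 and 73.6), *Nfil3* (13.2 and 8.28) and *Lonrf3* (1.38 and 0.871) downward. *Arntl*, the clock factor BMAL1 (1.01 and 0.622 FPKM), and *Npas2*, a relative of *Clock* (0.151 and 0.110), had means under 1 FPKM and were not counted. Counted clock genes within the limit were *Nr1d1* (68.3 and 50.1 FPKM), *Per2* (5.80 and 7.36), *Per3* (9.73 and 8.43), *Cry1* (4.34 and 3.50), *Cry2* (20.5 and 17.5), *Clock* (10.4 and 9.03) and *Dbp*, an output gene of large daily amplitude (67.2 and 67.5). Further values within it were 24.2 and 23.3 FPKM for *Rora*, 60.4 and 56.5 for *Nr1d2*, 31.2 and 25.6 for *Hlf*, 118 and 118 for *Tef*, 25 and 35.5 for *Usp2* and 10.9 and 9.38 for *Wee1*.

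The immediate early genes passed the limit in both directions, with 4 of 20 upward (20.0% beside 2.50% over all genes) and 5 downward (25% beside 2.22%), and had a median of 0.23. *Gadd45g*, *Ctgf* (5.92 and 16.4 FPKM), *Myc* (1.63 and 3.05) and *Gadd45b* (0.993 and 1.64) were upward. *Nr4a1*, *Cyr61* (14.9 and 7.12 FPKM), *Egr1* (7.56 and 4.79), *Junb* (30 and 19.6) and *Fos* (1.64 and 1.05) were downward. Of 23 counted genes of the endoplasmic reticulum 19 lay above 0, with *Chac1* (1.48 and 4.14 FPKM), *Creld2* (19.6 and 35.7), *Manf* (101 and 164) and *Herpud1* (454 and 734) upward and *Trib3* downward (13.5 and 7.22). Their shares past the limit were 17.4% upward and 4.35% downward, beside 2.50% and 2.22%. The interferon-stimulated genes had a median of 0.07, with *Oas1a* (0.759 and 1.46 FPKM) and *Usp18* (4.38 and 7.01) upward (9.09% beside 2.50%). In the cell cycle list *Ccnd1*, the cyclin of the first growth phase (11.2 and 30 FPKM), and *Birc5* (0.711 and 1.29) were upward (15.4% beside 2.50%), while *Pcna* had 23.6 and 22.9 FPKM. All 12 counted extracellular matrix genes lay above 0, with a median of 0.23, and none was past the limit, *Sparc* (35.4 and 40.7 FPKM) and *Mmp14* (14.4 and 15.4) being the most abundant.

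**Figure D5:**
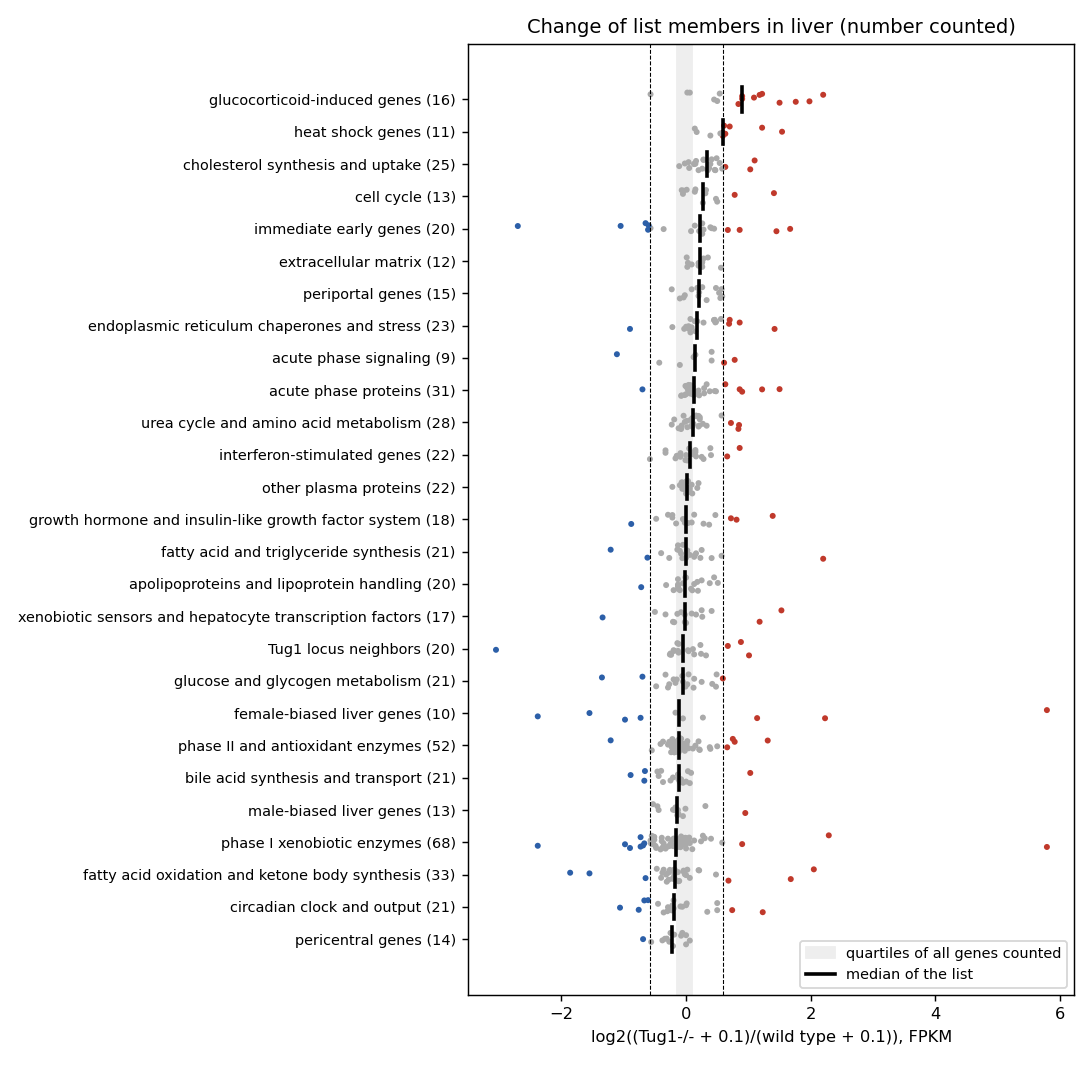
Log2 change in liver (x axis) of each counted member of the 27 gene lists, with the number counted in parentheses, the median of each list as a black bar and the quartiles of all genes as a grey band. Red and blue points are more than 1.5 times higher or lower in *Tug1*-/- liver; the medians of the glucocorticoid (0.90) and heat shock (0.59) lists stand furthest to the right of the band.

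Markers of the other cells of the liver were read beside these groups, since in whole tissue fewer cells of a type and less RNA per cell cannot be told apart. All 14 counted markers of Kupffer cells and macrophages lay above 0 in log2, with a median of 0.48 and a summed level of 556 FPKM in wild type and 750 in *Tug1*-/-. Past the limit were 3 of the 14 (beside 2.50% of all genes): *Marco*, *Lyz2* (74.7 and 130 FPKM) and *Emr1*, which encodes F4/80 (8.84 and 14.9). By contrast *Clec4f*, a defining Kupffer cell marker, had 84.0 and 100 FPKM and *Cd163* 5.93 and 8.38. In other samples *Marco* had 0.00671 and 6.41 FPKM in cultured embryonic fibroblasts and 97.9 and 98.3 in spleen. *Hmox1* and *Il1rn* are also expressed by macrophages, and the part of these cells in the changes of the acute phase and stress lists was not tested. The hepatocyte markers summed to 60346 and 59093 FPKM. Markers of cholangiocytes (78.2 and 82.4 FPKM), sinusoidal endothelial cells (209 and 217), stellate cells and fibroblasts (308 and 337) and erythroid cells (758 and 745) differed less in sum. In these lists only *Acta2*, 1 of the 9 counted stellate and fibroblast markers, was past the limit, upward (2.03 and 3.67 FPKM). T and NK cell markers summed to 3.27 and 4.31 FPKM with none counted, B and plasma cell markers to 5.16 and 4.47, and neutrophil markers to 4.30 and 6.27, with *Ly6g* at 0 in both and *S100a8* (1.40 and 2.23) and *S100a9* (1.69 and 2.73) past the limit upward. The adipocyte genes *Plin1* and *Lep* were at 0 in both genotypes, *Fabp4* making up nearly all of the sum of that list (21.8 and 27.7 FPKM). Pancreatic acinar markers summed to 33.6 and 24.0 FPKM, of which *Cela1*, which liver also expresses, had 31.5 and 22.9. Of the skeletal muscle markers *Myh1*, *Myh2* and *Ckm* were at 0 in both.

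The same lists were read in the other 6 tissues analysed here, where the levels come from separate comparisons and the differences between tissues were not tested. Of the counted glucocorticoid-induced genes, 8 of 15 were more than 1.5 times higher in *Tug1*-/- heart (0.843% of all genes there), 6 of 14 in spleen (4.91%), 4 of 15 in eye (2.64%), 3 of 16 in prostate (2.40%), 1 of 15 in testes (1.17%) and 0 of 13 in embryonic fibroblasts grown in culture (0.975%). *Fkbp5* had 5.77 FPKM in wild-type and 15.9 in *Tug1*-/- heart, 14.8 and 30.4 in spleen, and 13.1 and 15.9 in the fibroblasts. *Zbtb16* had 5.08 and 14.8 FPKM in heart. Of the heat shock genes 6 of 11 were past the limit upward in spleen, 5 of 12 in prostate and 3 of 12 in heart, and none in eye, testes or fibroblasts. No gene of cholesterol synthesis was past the limit upward outside liver, of 23 to 25 counted per tissue. With so few genes, none past it lies near the shares of all genes there (0.843% to 4.91%). *Alas1*, at 139 and 522 FPKM in liver, had 73.0 and 77.3 in heart and 43.9 and 42.5 in testes, and *Lpin1*, at 36.2 and 167 in liver, had 32.2 and 37.2 in heart and 159 and 135 in testes. *Nr4a1*, at 13.6 and 2.00 FPKM in liver, had 27.2 and 17.4 in heart and 10.9 and 11.4 in eye. *Rps4y2*, a ribosomal protein gene that the naming rule leaves out and that is named here after its values were seen, had 16.2 and 80.7 FPKM in liver, 3.90 and 50.7 in spleen, and 83.0 and 87.0 in testes.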

How the data were processed

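PolyA RNA of frozen tissue had been extracted in TRIzol and made into libraries with a TruSeq RNA kit, which does not keep the strand. The submitters' processing notes name CASAVA 1.8.2, TopHat2 and Cuffdiff with the build mm10; the annotation release is not given in the sources used here, while the methods of the paper name other programs for its own calls. The authors' deposited table holds 1 FPKM value per gene, genotype and tissue, with the replicates combined. FPKM is the unit of that layout and is not named in the header. The authors' fold changes, test statistics, p-values and q-values in it were not used. An eighth tissue was not analysed here.

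The wild-type and *Tug1*-/- liver values were compared as log2 ratios with a pseudocount of 0.1, over genes with a mean of at least 1 FPKM, and were counted past 1.5 times. Since the table has 1 value per genotype, there is no test, interval or count of reads, and the depth is unknown. Genes of incomplete status (26 with too little data, 5 failed) were left out after the values had been seen. The members, the 27 gene lists and the 12 marker lists were chosen with earlier results of these data known. Genes are named in the text by rule: *Tug1*, *lacZ* and the liver markers; the 12 highest and 12 lowest among those with a mean of at least 5 FPKM, without predicted, ribosomal protein and small RNA genes; per list up to 6 members past the limit by size of change, or else the 2 most abundant; and all counted members of the clock list and of the *Tug1* neighbors. Other genes are named for their role, after their values were seen. Some genes that this rule picks are counted but not reported here. Coordinates are those of GENCODE vM21 (25827 IDs matched), and promoter windows those of RefSeq on GRCm38.p6 (430 of 558 counted list members matched). The counting step was run on simulated data with large planted changes, little noise and no spread between mice. That run checks the code only and says nothing on how reliable the liver counts are. Python 3.11.15, pandas 2.3.3, numpy 2.4.6 and biopython 1.88 were used.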

Additional observations from a re-analysis of the deposited data

How the results depend on the processing

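No paired analysis was possible because the table has 1 combined value per genotype; for the same reason no replicate could be left out. Under the 8 alternatives for the liver counts and 2 more chosen after seeing the data, no named gene past the limit changed sign. None could have done so. Only centering (by 0.02) and scaling (by up to 0.06) shift a log2 change, and the limit is 0.58. The counts could only stay or move, so no reversal of them could be seen. With the median in place of the sum of cell type markers, the log2 change of the hepatocyte markers went from -0.03 to 0.02. The counts over all genes, 292 higher and 260 lower, became 186 and 159 with a pseudocount of 1, 830 and 721 with no filter on the mean, 150 and 123 with a mean of at least 5 FPKM, and 89 and 64 past 2 times. Past 2 times the neighbors of *Tug1* numbered 1 higher and 1 lower, the acute phase list 2 higher, the phase I list 1 lower and the heat shock list 2 higher. With a mean of at least 5 FPKM there was 1 lower neighbor, 3 acute phase genes higher and 4 phase I genes lower. The heat shock count was 4 with a pseudocount of 1, where *Serpinh1* and *Chordc1* were at 0.57. The female-biased list had 8 lower with no filter, 1 with a mean of at least 5 FPKM and 2 past 2 times. Scaled to the same total FPKM the cholesterol count was 5 and the periportal count 4. Of the 139 named genes with a fold, 49 came within the limit when it was raised to 2 times. With a mean of at least 5 FPKM 112 of the 139 were still counted. A pseudocount of 1 brought 10 within the limit, and scaling to the same total 2 (*Srebf1* and *Lonrf3*, both at -0.56). Centering on the median, a pseudocount of 0.01 and the status filters brought none within it. The median of the neutrophil markers was 0.65 where their sums differed by 0.54. Of the 52 list counts, higher and lower, 25 moved by more than 1.5 times past 2 times. With the genes of incomplete status kept, the male-biased list had 3 higher and 1 lower.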
